A study of Mus musculus with 6 samples.

Results

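The genes described here encode endocytic receptors that bind lipoproteins, proteases and other extracellular proteins, together with a chaperone of these receptors. They were taken by name and number 9 of the 19179 genes listed in the files: Lrp1, Lrpap1, Lrp10, Lrp8, Vldlr, Scarb1, Scara3, Sort1 and Sorl1. They were chosen by name with their measured changes between the kinds of clone already known, above all that of Lrp1. The members' differences between the groups are therefore given as a description, without p-values. Adjusted p-values are reported for other genes of the same pathways. Those lists were also chosen with earlier results of these data known, and most genes named from them were taken by smallest p. Their p-values therefore carry a selection as well.

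Receptors of the LDL receptor family capture ligands at the cell surface, enter through clathrin-coated pits, release the ligand in acidic endosomes and return to the surface. Newly made receptors are accompanied through the secretory pathway by the receptor-associated protein encoded by Lrpap1, which keeps ligands from binding too early. Scarb1 encodes SR-BI, which takes cholesteryl esters from high-density lipoprotein without engulfing the particle, and sortilin (Sort1) and SORLA (Sorl1) carry cargo between the trans-Golgi network, endosomes and the surface. LRP1 is known in tumour cells and stroma for clearing complexes of proteases with their inhibitors.

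The RNA came from clones of 4T1, a mammary carcinoma line of the BALB/C mouse strain, each grown for 14 days from a well seeded with a single cell in RPMI-1640 medium. Both groups were untreated and of the same line: 3 libraries came from clones with the tissue label breast cancer stem cell (stem-labelled below, SC in the protocol text) and 3 from clones labelled breast cancer cell (other below, NSC). The labels do not say by what criterion a clone received its label, how many clones entered a library or whether libraries with the same number share an experiment, so p-values measure the spread between these libraries, which may be partly technical. Values are RPKM, reads per kilobase of gene length scaled to a library total set by the authors, and a change is the difference of log2(RPKM + 1) between the group means (stem-labelled minus other) with its SE. In bulk RNA of this kind, fewer cells of a type and less RNA per cell cannot be told apart.

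Reads in genes numbered 21196572 to 22838870 per stem-labelled library, against 15357608 to 16830762 for the rest. They were 0.658 to 0.757 of the library total behind the RPKM in the first group and 1.23 to 1.53 in the second, so the scale itself differed between the groups, and this cannot be told apart from the kind of clone. The median change of all 10097 tested genes was 0.11 on the deposited scale and 0.86 after rescaling to the reads summed over genes. With that rescaling the calls over all genes went from 3014 higher and 2563 lower to 5926 and 1245, and with upper-quartile scaling to 3896 and 2126. As a check of the carcinoma origin, 6 epithelial markers were read, and they summed to 928 to 1432 RPKM in the stem-labelled and 2052 to 3705 RPKM in the other libraries, mostly Krt8 and Krt18. They did not move together: Cdh1 rose (2.04 ± 0.22), Krt18, Krt7 and Krt19 fell (-1.79 ± 0.38, -2.72 ± 0.45 and -3.67 ± 0.82), and Krt8 and Epcam were not called. Krt19 was at 0.0379 RPKM in replicate 1 of the stem-labelled clones. The part of these differences in the results was not tested. Of 11 names checked for macrophages and other leukocytes 6 were in the files. Ptprc, Csf1r and Itgam had group means of at most 0.00636 RPKM, and Cd68 and Cd14 made up nearly all of the summed 21.2 to 61.7 RPKM against 10.9 to 37.4 RPKM. Of 9 fibroblast and pericyte names 5 were listed, summing to 1.68 to 3.38 against 0.414 to 1.01 RPKM. Pdgfra made up nearly all of this, and Dcn, Col1a1, Col1a2 and Fap had group means of at most 0.0501 RPKM. The 3 listed of 5 endothelial markers summed to at most 0.0895 RPKM.

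Lrp1 was 14.5-fold higher in the stem-labelled clones by the ratio of the mean RPKM, the largest difference among the 9 genes. Scara3, Sorl1, Lrp8 and Lrpap1 were also higher, by 1.93-fold to 4.27-fold, while Scarb1 was 1.85-fold higher in the other clones and Lrp10 overlapped between the groups, all on the deposited scale. Vldlr was close to the limit of detection in both groups. Sort1 was close to it in the other clones, with 10 reads in all against 189 in the stem-labelled clones. The test took in genes that reached 1 RPKM in 3 or more of the 6 libraries, among them 7 of the 9. At a Benjamini-Hochberg adjusted p under 0.05 (limma), 5 of the 7 were called higher, where 29.9% of all tested genes were, and 1 was called lower, where 25.4% were. Calls in either direction numbered 6 of 7, where 55.2% of all tested genes were called. The groups did not overlap for 7 of the 9 genes, where 44.7% of all listed genes and 63.5% of the tested ones did not overlap either (35.7% above and 27.8% below). Since the 9 genes were picked with this contrast known, nothing is read from these counts. Sorl1 reached 1 RPKM in a single library of the other clones, so its place among the tested genes rested on the stem-labelled libraries.

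**Figure D1:**
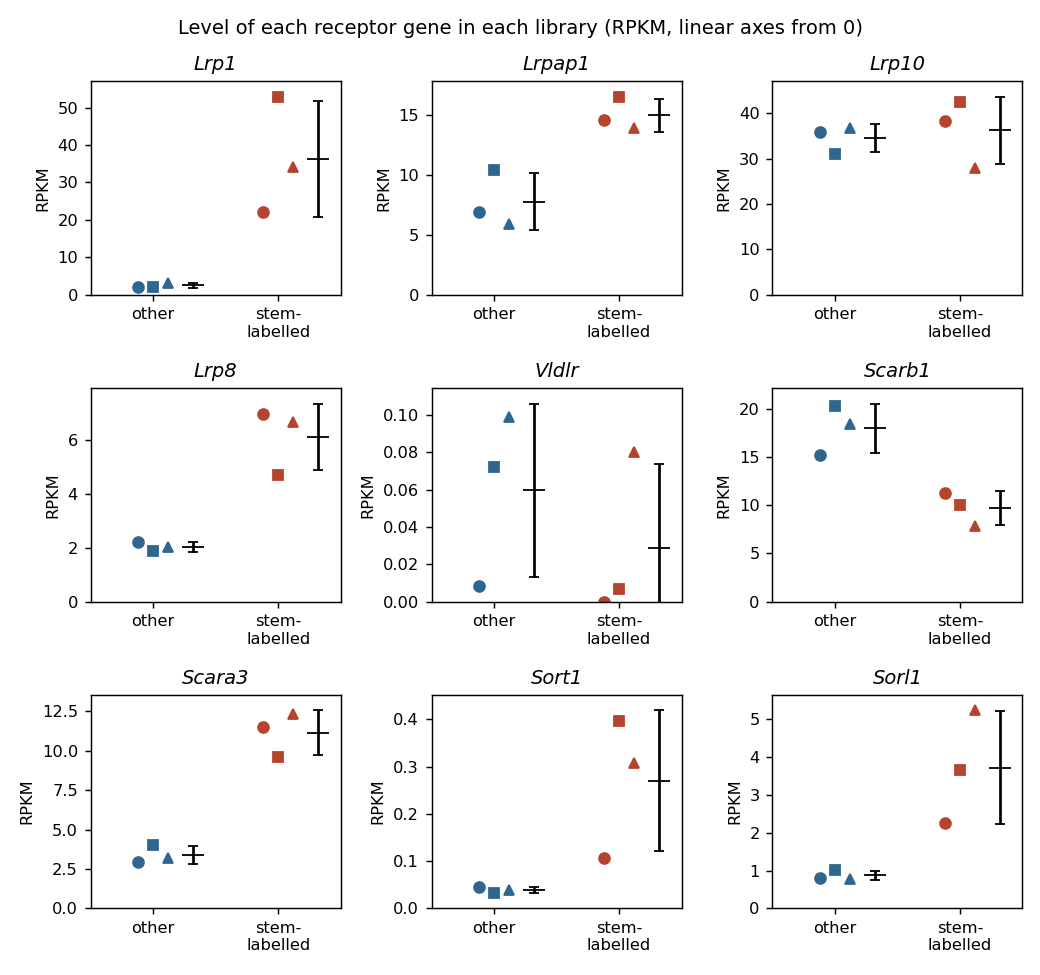
RPKM of each of the 9 genes in each library, on linear axes from 0 with a separate range for each gene; circles, squares and triangles are replicates 1, 2 and 3, and the bars are the mean ± SD of 3 libraries (the lower bar of Vldlr in the stem-labelled clones is drawn down to 0). The stem-labelled libraries lie above the others for Lrp1, Lrpap1, Lrp8, Scara3, Sort1 and Sorl1, below them for Scarb1, and among them for Lrp10 and Vldlr.

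Lrp1 (ENSMUSG00000040249, chromosome 10, 127538161 to 127621148 on GRCm38, minus strand) encodes a very large receptor with many ligands, including apolipoprotein E, alpha-2-macroglobulin and complexes of proteases with their inhibitors. Its level was 22.1, 52.9 and 34.2 RPKM in replicates 1, 2 and 3 of the stem-labelled clones and 2.13, 2.19 and 3.20 RPKM in those of the other clones. Every stem-labelled library was above every other library, and the lowest of the first group exceeded the highest of the second by 6.90-fold. The means were 36.4 ± 15.5 and 2.51 ± 0.602 RPKM (SD, n = 3 each). The change of 3.34 ± 0.31 placed Lrp1 at rank 7 of the 10097 tested genes. The spread was wide among the stem-labelled libraries, where replicate 2 stood well above replicate 1. The values rested on 11138 to 28407 reads per stem-labelled library and 450 to 571 per other library, and its longest transcript in GENCODE M21 shares no stretch of 50 bases with transcripts of other genes.

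Lrpap1 (ENSMUSG00000029103, chromosome 5, 35091501 to 35105766), the chaperone of the receptors, was higher by far less. It measured 14.5, 16.5 and 13.8 RPKM in the stem-labelled libraries and 6.93, 10.4 and 5.86 RPKM in the others. The groups did not overlap, although replicate 2 of the other clones came within 1.33-fold of the lowest stem-labelled library. The means were 15 ± 1.36 and 7.74 ± 2.39 RPKM and the change was 0.90 ± 0.23. The receptor and its chaperone thus differed in proportion: Lrp1 was 1.52, 3.21 and 2.47 times the level of Lrpap1 in the stem-labelled libraries and 0.307, 0.210 and 0.546 times its level in the others. A ratio of this kind within a library is not moved by how the library was scaled. Differences between the groups that follow gene length can still move it, and the files give Lrp1 17717 bases and Lrpap1 4116.

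The sequences around the transcription start are shown for this receptor, its chaperone and the level gene Lrp10, since Lrp1 and Lrpap1 were higher in the stem-labelled clones on the deposited scale and Lrp10 was not. Each runs 5′ to 3′ on the gene's strand from 250 bases before to 50 bases after the start, from RefSeq on GRCm38.p6, where 6 of the 9 genes had an entry. Capitals mark GC boxes (GGGCGG on either strand), the sites known to be bound by SP1-type factors.
Lrp1, chr10:127621099-127621398, minus strand: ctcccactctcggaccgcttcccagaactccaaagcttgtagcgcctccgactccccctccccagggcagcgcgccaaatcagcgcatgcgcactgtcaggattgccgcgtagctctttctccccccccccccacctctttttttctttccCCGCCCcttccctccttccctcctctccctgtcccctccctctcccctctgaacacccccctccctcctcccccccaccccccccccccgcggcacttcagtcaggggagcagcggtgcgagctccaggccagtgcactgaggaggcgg
Lrpap1, chr5:35105650-35105949, minus strand: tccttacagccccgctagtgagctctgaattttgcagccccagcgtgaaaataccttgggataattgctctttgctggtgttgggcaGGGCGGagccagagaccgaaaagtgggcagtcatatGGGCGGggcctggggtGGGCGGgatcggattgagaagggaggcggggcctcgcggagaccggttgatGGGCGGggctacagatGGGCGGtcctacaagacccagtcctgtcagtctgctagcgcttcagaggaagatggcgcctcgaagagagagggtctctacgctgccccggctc
Lrp10, chr14:54463897-54464196, plus strand: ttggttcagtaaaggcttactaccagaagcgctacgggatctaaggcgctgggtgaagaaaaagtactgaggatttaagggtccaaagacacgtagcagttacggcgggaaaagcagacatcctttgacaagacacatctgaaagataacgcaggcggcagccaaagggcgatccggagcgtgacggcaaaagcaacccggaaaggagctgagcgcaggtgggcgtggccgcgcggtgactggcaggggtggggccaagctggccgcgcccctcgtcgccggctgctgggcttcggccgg

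The window of Lrp1 held 1 GC box, that of Lrpap1 held 5 and that of Lrp10 held 0, and 35.7% of the 32851 windows of this length in the table held at least 1. Sorl1 held 1 GC box and 1 E-box (CACGTG, the same on both strands), which 7.15% of all windows held. Lrp8 and Vldlr matched neither motif. A TATA box written TATAAA, searched on both strands and found in 13.6% of all windows, had 0 matches in the 6. These are matches of letters in a short window and no measure of binding.

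Lrp10 (ENSMUSG00000022175, chromosome 14, 54464164 to 54471497) encodes a smaller relative of the family that moves between the Golgi, endosomes and the surface. It was at 38.2, 42.4 and 28.0 RPKM in the stem-labelled libraries and 35.8, 31.0 and 36.7 RPKM in the others. The ranges overlapped, the means were 36.2 ± 7.39 and 34.5 ± 3.06 RPKM, and the change of 0.05 ± 0.23 was within its error. After rescaling to summed reads it stood at 0.97 and was called higher. On the deposited scale Lrp10 gives a yardstick inside each library for the others, although differences that follow gene length, given below, still enter such a ratio. Lrp1 stood at 0.578, 1.25 and 1.22 times Lrp10 in the stem-labelled libraries, but only at 0.0595, 0.0704 and 0.0871 times Lrp10 elsewhere. Scarb1 went the opposite way, at 0.296, 0.236 and 0.282 against 0.426, 0.655 and 0.501 times Lrp10. The ratio to Lrp10 did not overlap between the groups for Lrp1, Lrpap1, Scara3, Scarb1, Lrp8 or Sorl1. The RPKM of these genes did not overlap either, as for 63.5% of all tested genes. The share of all genes whose ratio to Lrp10 does not overlap was not computed, so nothing is read from this. Lrp10 shares 475 exon bases with Gm10366 on the opposite strand in GENCODE M21, and whether reads were counted by strand is not given in the sources used here.

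**Figure D2:**
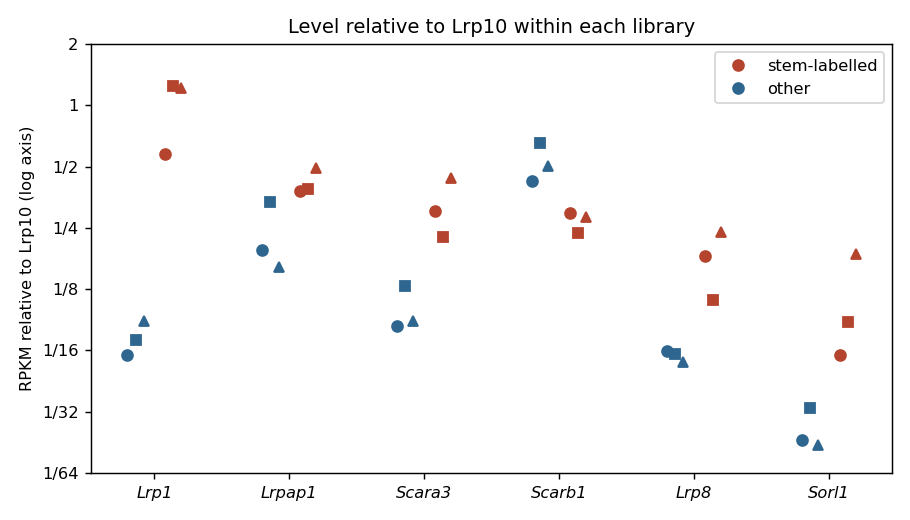
RPKM of 6 genes divided by the RPKM of Lrp10 in the same library, on a log axis; red is stem-labelled, blue is other, and circles, squares and triangles are replicates 1, 2 and 3. Lrp1 moves from 0.0595 to 0.0871 in the other libraries to between 0.578 and 1.25 in the stem-labelled ones, and Scarb1 is the gene of the 6 that lies lower in the stem-labelled libraries.

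Lrp8 and Vldlr encode the closely related receptors for reelin and apolipoprotein E, best known from neurons and, for the VLDL receptor, from tissues that take up triglyceride-rich lipoproteins. Lrp8 (ENSMUSG00000028613, chromosome 4, 107802261 to 107876840) was at 6.96, 4.71 and 6.67 RPKM in the stem-labelled libraries and 2.22, 1.86 and 2.02 RPKM in the others. The groups stood clearly apart, with means of 6.11 ± 1.23 and 2.03 ± 0.177 RPKM and a change of 1.21 ± 0.20. Vldlr (ENSMUSG00000024924, chromosome 19, 27216484 to 27254231) was listed at 0, 0.00655 and 0.0802 RPKM and at 0.00833, 0.0718 and 0.0986 RPKM. These values came from 28 reads in all stem-labelled and 20 in all other libraries, and the groups overlapped. The 0 of replicate 1 of the stem-labelled clones allows up to 0.0105 RPKM (3 reads, counting error only). Of this pair of receptors, then, only Lrp8 was above 0.1 RPKM in any library.

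Scarb1 and Scara3 are scavenger receptors of different classes and lay on opposite sides. Scarb1 (ENSMUSG00000037936, chromosome 5, 125277087 to 125341094) was at 11.3, 9.99 and 7.90 RPKM in the stem-labelled libraries and 15.3, 20.3 and 18.4 RPKM in the others. Of the 9 genes it alone had every stem-labelled library below every other library. The means were 9.73 ± 1.72 and 18 ± 2.55 RPKM, and the change was -0.83 ± 0.22. Rescaled to summed reads, Scarb1 stood at 0.04 and was not called, against a median of 0.86 for all genes, so it lay below the median of all genes on either scale. Scara3 (ENSMUSG00000034463, chromosome 14, 65919395 to 65953744), a class A scavenger receptor known to be induced by oxidative stress, was at 11.5, 9.56 and 12.3 RPKM against 2.96, 4.01 and 3.21 RPKM. The groups were well separated, at 11.1 ± 1.42 and 3.39 ± 0.551 RPKM, with a change of 1.47 ± 0.20. In the stem-labelled clones the levels of these scavenger receptors overlapped, whereas in the others Scarb1 was above Scara3 in every library.

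Sort1 and Sorl1 encode receptors with a VPS10 domain that sort cargo inside the cell, and they differed strongly in level. Sorl1 (ENSMUSG00000049313, chromosome 9, 41964720 to 42124297), which encodes SORLA, was at 2.26, 3.66 and 5.23 RPKM in the stem-labelled libraries and 0.815, 1.01 and 0.790 RPKM in the others. The stem-labelled libraries were higher and more spread, at 3.72 ± 1.49 against 0.871 ± 0.119 RPKM, with a change of 1.29 ± 0.24. Sort1 (ENSMUSG00000068747, chromosome 3, 108284082 to 108361511) was at 0.107, 0.396 and 0.308 RPKM against 0.0443, 0.0318 and 0.0394 RPKM. The groups did not overlap here either, but the other libraries held 10 Sort1 reads in all and the stem-labelled libraries 189. The ratio of the pooled rates was 7.15, with an exact 95% interval of 3.8 to 15.2 that covers counting error only. Sort1 was not tested, being under 1 RPKM in every library. Sorl1 was 9.24 to 31.6 times Sort1 in the 6 libraries, and this ratio overlapped between the groups. Sort1 and Sorl1 share 338 and 185 exon bases with Gm12523 and Gm16214 on the opposite strand, and Gm16214 had at most 3 reads in any library.

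The order of the receptor levels differed between the kinds of clone. In the stem-labelled clones Lrp1 and Lrp10 shared the top with overlapping ranges, followed by Lrpap1, by Scara3 and Scarb1 with overlapping ranges, by Lrp8 and Sorl1 with overlapping ranges, and by Sort1 and Vldlr. In the other clones Lrp10 came first, then Scarb1, then Lrpap1, then Scara3, Lrp1 and Lrp8, of which Scara3 overlapped Lrp1 and Lrp1 overlapped Lrp8, then Sorl1, and then Vldlr and Sort1 with overlapping ranges. A comparison between genes depends on the length used. The files give Scarb1 a length of 8500 bases, while its longest GENCODE M21 transcript has 3093. Per length of the longest transcript, a choice made after seeing the data, Scarb1 was the most abundant of the 9 in the other clones, at 49.5 ± 7.02 RPKM against 34.3 ± 3.04 RPKM for Lrp10. In the stem-labelled clones Lrp1 stayed first with 43.3 ± 18.5 RPKM and Scarb1 followed Lrp10 with 26.7 ± 4.73 RPKM. Ratios of a gene's own RPKM between libraries do not depend on this length. Its length decile and its change after the correction for length and GC content, both given below, do.

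Length also moved with the differences between the groups. Among 10 length classes (deciles) of the tested genes the shortest had a median change of -1.17 and the longest one of 0.71, the latter covering 8322 to 38847 bases. Lrp1, Lrp8, Scarb1 and Sorl1 are in that longest decile, of which 59.5% were called higher and 4.75% lower. This placement uses the lengths in the files, 8500 bases for Scarb1 and 10514 for Lrp8, while their longest transcripts have 3093 and 6627. The correction below uses the lengths in the files too and was not repeated with transcript lengths. Scara3 is in decile 5 and Lrpap1 and Lrp10 in decile 6, of which 28.4% and 30.7% were called higher. After correcting for how changes follow length and GC content, Lrp1 stood at 2.96, Scara3 at 1.55 and Scarb1 at -1.74, each still called in its direction. Lrpap1 stood at 0.50, Lrp8 at 0.28 and Sorl1 at 0.24, and these 3 were no longer called, so 2 genes were called higher in place of 5. The genes were picked with this contrast known, so calls kept or lost here are a description only. The part of length in the difference of Lrp8, Sorl1 and Lrpap1 cannot be told apart from the kind of clone, because the correction removes every difference that follows length or GC content.

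**Figure D3:**
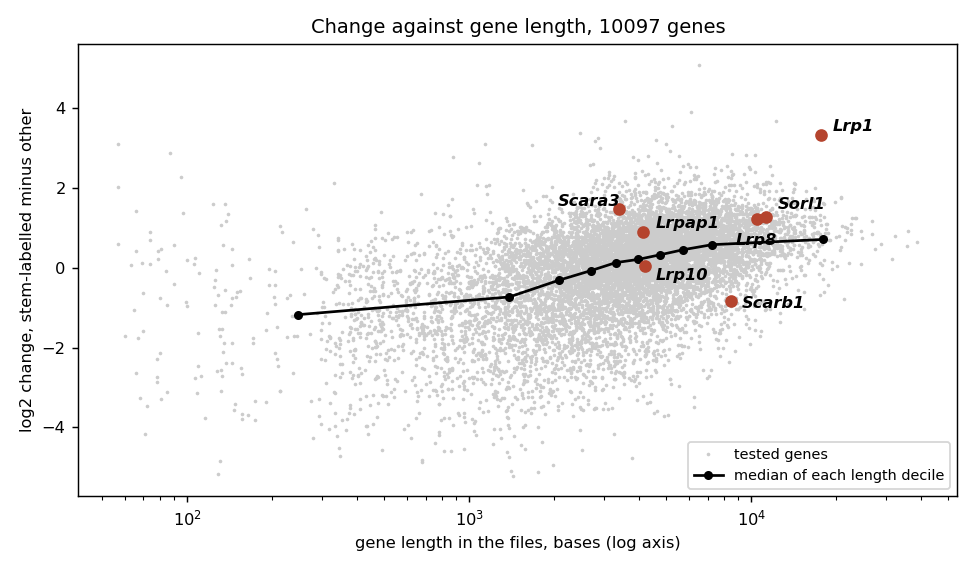
Log2 change of each of the 10097 tested genes (grey) against the gene length given in the files on a log axis; the black line joins the medians of the length deciles and the 7 tested receptor genes are in red. Lrp1 lies far above the median of 0.71 of its length decile, Sorl1 and Lrp8 lie closer to it, and Scarb1 lies below it at -0.83. Scarb1 is drawn at the 8500 bases of the files, while its longest transcript has 3093.

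**Figure D4:**
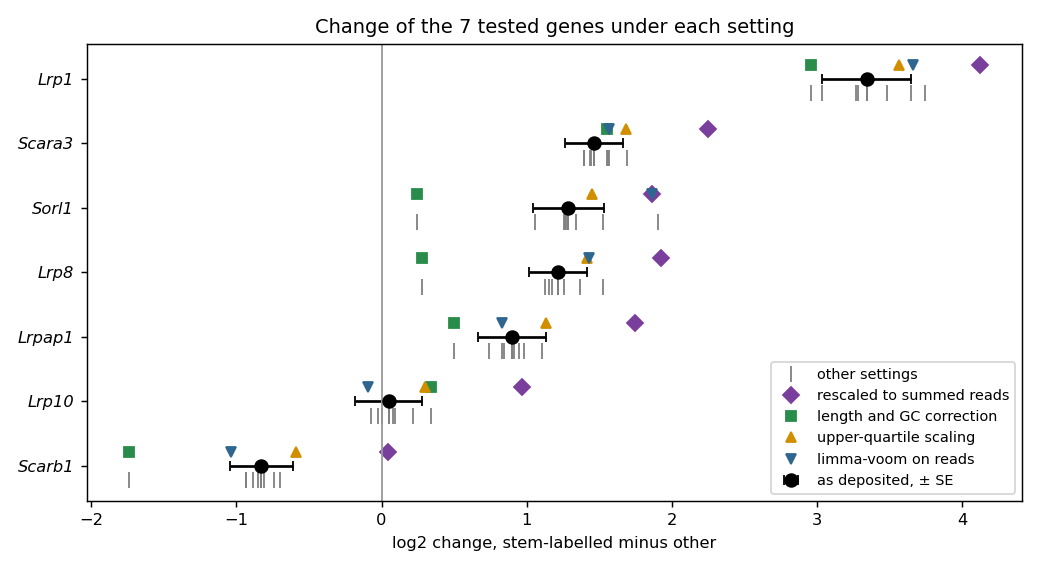
Log2 change of the 7 tested genes on the deposited scale (black, ± SE) and under other ways of processing the values; coloured symbols are rescaling to summed reads, the correction for length and GC content, upper-quartile scaling and limma-voom on reads, and grey ticks are the remaining settings. Lrp1 stays between 2.96 and 4.12 and Scara3 between 1.39 and 2.25, while Lrp10 runs from -0.09 to 0.97 and Scarb1 from -1.74 to 0.04.

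The genes whose pattern over the 6 libraries was most like that of Lrp1 were Rn18s-rs5, Gm23935, Rhou, Trib2 and Spry1. Likeness was the root mean square difference of log2(RPKM + 1), centred on each gene's mean, among 5950 tested genes with a mean of at least 5 RPKM, and it was 0.332 to 0.380 for these 5. Rn18s-rs5, a sequence related to 18S ribosomal RNA, was at 222, 272 and 184 RPKM in the stem-labelled libraries and 17.4, 22.5 and 21.7 RPKM in the others. Rhou, a small GTPase gene, was at 21.3, 31.5 and 26.9 against 2.67, 2.45 and 3.91 RPKM. Spry1, an inhibitor of receptor tyrosine kinase signalling, was at 11.8, 21 and 26.7 against 1.01, 1.99 and 1.54 RPKM. Among the receptor genes themselves Scara3 and Sorl1 were nearest to Lrp1, at 1.05 and 1.09, and Scarb1 was farthest, at 2.13. The tested receptor genes stood in the same order as by their changes between the groups. Their likeness to Lrp1 therefore restates those changes and adds no separate evidence.

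Of 14 further genes of the LDL receptor and VPS10 families 12 were in the files and 6 were tested: 5 rose and 1 fell, with a median change of 1.12 beside 0.11 for all tested genes, of which 29.9% were higher and 25.4% lower. Of the 6, 3 reached 1 RPKM in a single group (Lrp6 and Ldlrad3 in the stem-labelled clones, Sorcs2 in the others), so the filter bore on their calls and nothing is read from the count or the median. Lrp5, a co-receptor of WNT signalling, rose from 15.9 ± 4.05 to 45.3 ± 1.03 RPKM (1.48 ± 0.23, adjusted p = 0.000757), and Lrp12 rose by 1.16 ± 0.20 (adjusted p = 0.00113). Lrp6 and Ldlrad3, named after their values were seen, rose as well, but not after the correction for length and GC content, where 3 genes were higher and the median was 0.37. Sorcs2, a relative of sortilin, fell from 2.14 ± 0.309 to 0.542 ± 0.301 RPKM (-1.04 ± 0.20, adjusted p = 0.00227) and was not called on rescaling to summed reads (-0.56, adjusted p = 0.0573). Without any of the stem-labelled libraries in turn 3 genes were higher instead of 5, since Lrp6 and Ldlrad3 were then too low for the filter and were not tested. Sorcs2 was likewise not tested without any of the other libraries.

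Other scavenger receptors were called in both directions. Of 16 names 11 were in the files and 6 were tested, of which 2 rose, 2 fell and 2 did not pass, with a median of 0.10. These shares of 33.3% higher and 33.3% lower lay near the 29.9% and 25.4% of all tested genes, so nothing is read from them. Scara5, a class A receptor that binds ferritin, stood at 17.7, 21.1 and 28.9 RPKM against 0.413, 0.95 and 0.342 RPKM (3.90 ± 0.24, adjusted p = 9.21e-05). Scarb2, the lysosomal class B receptor LIMP-2 that carries glucocerebrosidase, rose from 2.31, 1.94 and 1.75 RPKM to 5.75, 5.41 and 6.47 RPKM (1.20 ± 0.18, adjusted p = 0.000663), whereas its class B relative Scarb1 was lower on this scale. Scarf2 fell from 71.6 ± 40.6 to 16.9 ± 3.43 RPKM, with replicate 1 of the other clones at 118 RPKM (-1.91 ± 0.36, adjusted p = 0.00182). Stab1, the stabilin known from macrophages and sinusoidal endothelium, fell by 1.30 on the log2 scale (adjusted p = 0.0113) and was not called without the filter on low values (adjusted p = 0.0624). Scara5 reached 1 RPKM in the stem-labelled group only and was not tested without any of those libraries, which left 1 gene higher.

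Genes that handle the receptors were also read as a list. Of 18 chaperones, adaptors and receptor-cleaving proteases 13 were tested, of which 8 rose, 2 fell and 3 did not pass, with a median of 0.78. That is 61.5% higher and 15.4% lower, beside 29.9% and 25.4% of all tested genes, whose median was 0.11. The tested genes of this list have a median length of 5558 bases, within a length decile of which 42.6% were called higher. The part of length in these counts was not tested. Bace1, the beta-secretase, rose from 2.06, 2.67 and 2.16 RPKM to 13.3, 16.7 and 15.4 RPKM (2.29 ± 0.19, adjusted p = 0.000117). Mesdc2, the chaperone of LRP5 and LRP6, rose by 1.33 ± 0.21 (adjusted p = 0.000714). Ncstn, a subunit of the gamma-secretase that cleaves LRP1 within the membrane, rose by 1.15 ± 0.20 (adjusted p = 0.00118) and Adam17, a shedding protease, by 1.26 ± 0.25 (adjusted p = 0.00243). Among the 2 that fell was Apbb1, an adaptor that binds the tail of the amyloid precursor protein, named here after its values were seen (-1.08, adjusted p = 0.00324). After the correction for length and GC content 5 genes were higher and 2 lower, and the median was 0.33. On rescaling to summed reads Apbb1 stood at -0.21 and was not called.

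Ligands of the receptors moved in both directions. Of 31 ligands 28 were in the files and 19 were tested, of which 9 rose, 7 fell and 3 did not pass, with a median of 0.17. That is 47.4% higher and 36.8% lower, beside 29.9% and 25.4% of all tested genes. App, the amyloid precursor protein and a cargo of SORLA and LRP1, rose from 17.4, 14.8 and 18.8 RPKM to 77.5, 109 and 96.3 RPKM (2.40 ± 0.23, adjusted p = 0.000127). Thbs1 and Plat, named after their values were seen, encode further ligands cleared by LRP1 and rose by 1.82 ± 0.32 and 1.30 ± 0.33 (adjusted p = 0.00128 and 0.00842). Mmp9, a gelatinase, fell from 20.3, 21.2 and 20.3 RPKM to 2.09, 2.51 and 1.13 RPKM (-2.92 ± 0.23, adjusted p = 0.000109), and Ctgf, a matricellular growth factor, from 7.12 ± 0.134 to 0.440 ± 0.186 RPKM (-2.50 ± 0.18, adjusted p = 9.57e-05). App, Mmp9 and Ctgf were also called in the same direction after the correction for length and GC content and on rescaling to summed reads. Ctgf reached 1 RPKM in the other clones only. Over the whole list 4 ligands in place of 7 were lower on rescaling.

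The general machinery of sorting and of clathrin endocytosis was read as separate lists. Of 19 genes of trans-Golgi and endosome sorting 7 rose, 2 fell and 10 did not pass (median 0.38). That is 36.8% higher and 10.5% lower, beside 29.9% and 25.4% of all tested genes. Igf2r, the receptor that carries lysosomal enzymes and insulin-like growth factor II, rose from 1.87 ± 0.814 to 14.8 ± 7.04 RPKM (2.37 ± 0.37, adjusted p = 0.000792), and M6pr, the smaller mannose-6-phosphate receptor, by 0.97 ± 0.20 (adjusted p = 0.00332). Snx27, a retromer-linked sorting nexin, rose by 1.69 ± 0.24 (adjusted p = 0.000428), and Ap1s1, a subunit of the AP-1 adaptor, fell by 1.6 on the log2 scale (adjusted p = 0.000996). Of 23 genes of clathrin endocytosis 5 rose, 6 fell and 12 did not pass (median 0.25). Here the shares were 21.7% higher and 26.1% lower, beside the same shares of all tested genes. Ap2s1, the small subunit of the AP-2 adaptor, fell from 380, 357 and 249 RPKM to 64.2, 60.9 and 45.9 RPKM (-2.50 ± 0.27, adjusted p = 0.000165), and Epn1, the endocytic adaptor epsin, by 1.76 on the log2 scale (adjusted p = 0.000517). Rab5b, a GTPase of early endosomes, rose by 1.41 ± 0.20 (adjusted p = 0.000486). Itsn1, an endocytic scaffold that reached 1 RPKM in the stem-labelled group only, rose by 1.11 ± 0.18 (adjusted p = 0.000941), but stood at -0.055 after the correction for length and GC content (adjusted p = 0.780). Rescaled to summed reads, 14 sorting genes and 16 clathrin genes were higher and 1 and 2 lower. With that rescaling 58.7% of all tested genes were higher and 12.3% lower, so these counts moved with the scaling as those of all genes did. Without replicate 3 of the stem-labelled clones 3 clathrin genes in place of 5 were higher. Gga1, named after its values were seen, fell by 0.75 on the log2 scale (adjusted p = 0.0465) and lost its call on rescaling and after the correction. Without any of the stem-labelled libraries in turn, and without replicate 1 or 2 of the other clones, Gga1 was not called lower, which left 1 sorting gene.

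Genes of cholesterol uptake and efflux were also called in both directions. Of 18 names 13 were tested, of which 5 rose, 4 fell and 4 did not pass (median 0.31). That is 38.5% higher and 30.8% lower, beside 29.9% and 25.4% of all tested genes, so nothing is read from the counts. Nceh1, which hydrolyses cholesteryl esters, rose from 1.84 ± 0.45 to 7.36 ± 2.93 RPKM (1.5 ± 0.28, adjusted p = 0.00182). Lipa, the lysosomal acid lipase that frees cholesterol from LDL taken up by receptors, rose from 2.63, 3.79 and 2.88 RPKM to 8.38, 6.76 and 9.19 RPKM (1.15 ± 0.21, adjusted p = 0.00142). Insig1, a sterol sensor and target of SREBP2, rose by 1.28 ± 0.24 (adjusted p = 0.00190). Npc1, which exports cholesterol from lysosomes and reached 1 RPKM in the stem-labelled group only, rose from 0.379 ± 0.0326 to 2.11 ± 0.217 RPKM (1.17 ± 0.17, adjusted p = 0.000458) and missed the threshold after the correction (0.34, adjusted p = 0.117). On rescaling to summed reads 8 genes were higher and the 4 lower calls were lost. Without any of the stem-labelled libraries in turn 3 genes were higher instead of 5, and without replicate 2 of the other clones 2 were lower instead of 4.

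**Figure D5:**
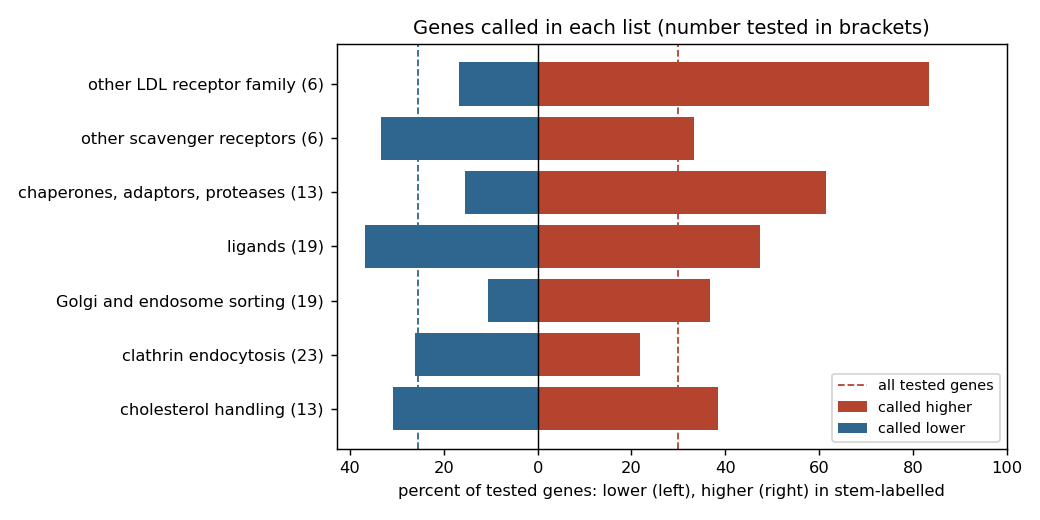
Share of the tested genes of each list called higher (red, to the right of 0) and lower (blue, to the left) in the stem-labelled clones at a limma adjusted p under 0.05, with the number tested in brackets; dashed lines mark 29.9% and 25.4%, the shares of all tested genes. The other LDL receptor family genes (5 of 6) and the chaperones, adaptors and proteases (8 of 13) have the longest red bars, and clathrin endocytosis has the shortest (5 of 23).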

How the data were processed

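Messenger RNA sequencing of 6 libraries of 4T1 clones was deposited by the authors as 1 table per library with RPKM for 19179 genes. The submitters' processing notes name TopHat2 2.0.9, Bowtie2 2.0.6 and mm9, with no roles. Gene coordinates in the tables are on GRCm38: 7 of the 9 receptor genes had the same start and end in GENCODE M21. The counting program and strand are not given in the sources used here.

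Each RPKM times the gene length was a whole multiple of a fixed step (tolerance 0.01), which returned reads. For a gene 1 kilobase long, a single read equals 0.0311 to 0.0993 RPKM. Symbols turned into numbers by a spreadsheet (25) were restored by identifier.

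Groups came from the tissue labels. log2(RPKM + 1) was compared with limma 3.58.1 (R 4.3.3, trend in the variance, two-sided) for the 10097 genes reaching 1 RPKM in 3 or more libraries, without a replicate block. The p-values were Benjamini-Hochberg adjusted over these, with a threshold of 0.05. Alternatives were other scalings, filters, pseudocount and variance model, leaving out each library, the replicate number as a block, and subtracting spline fits (5 degrees of freedom each) of every library's deviations on log2 length and GC content. The test was checked on simulated data. Named genes were all receptor genes, up to 4 tested genes per list by smallest p, and the 5 genes most like Lrp1. Some genes of the lists are counted but not reported here. Members and lists were chosen with earlier results of these data known.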

Additional observations from a re-analysis of the deposited data

How the results depend on the processing

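Rescaling to the reads summed over genes turned 3014 higher and 2563 lower genes into 5926 and 1245, and a filter of mean RPKM at least 5 left 1405 higher. Lrp10, which was not called on the deposited scale, changed sign to -0.072 without replicate 2 of the stem-labelled clones, -0.024 without replicate 2 of the other clones and -0.091 with limma-voom, and reached 0.22 at most on leaving out a library. It was called higher on rescaling (0.97). Scarb1 changed sign to 0.045 on rescaling, and Itsn1 to -0.055 with the length and GC correction, with or without the block. Lrp1 and Scara3 were called higher in all 16 alternatives, and Lrpap1, Lrp8 and Sorl1 lost their calls only with that correction. All alternatives re-use the same 6 libraries, so calls kept across them are no independent support for genes picked with this contrast known. Sorl1 and Lrp8 were removed by the filter of mean RPKM at least 5.

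The labels do not say that a replicate number marks a shared experiment. Same-numbered libraries deviated together with correlations across genes of -0.12, 0.03 and -0.08, so the numbers were not taken as pairs. With the number as a block 2735 genes were higher and 2477 lower, and no call of a named gene changed. Leaving a library out changed no other direction or call among the receptor genes and the genes named by rule that stayed above the filter. List counts under other settings were added after seeing the data. Depth limits Vldlr, with 28 reads in the stem-labelled group and 20 in the rest, and Sort1, with 189 and 10.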

Other observations

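Several genes of the same lists were too low to be tested and are given as values only. Megf10, a receptor for the engulfment of dying cells, had group means of 0.949 RPKM in stem-labelled clones (679 reads) and 0.172 RPKM in the rest (46 reads). Thbs2, which encodes thrombospondin 2, a ligand cleared by LRP1, was listed at 0 in each library of the other clones and had 209 reads in total across the stem-labelled group. Lrp11 had 337 and 50 reads (1.07 and 0.448 RPKM), and Mylip, a ubiquitin ligase, had 289 and 32 (1.04 and 0.300 RPKM). Cav1, the main protein of caveolae, went the other way with 155 and 242 reads (0.481 and 2.14 RPKM). Lrp2, Lrp3, Lpl and Apob had at most 6 reads in either group.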
